A study of Homo sapiens with 16 samples.

Results

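The genes described here encode chaperones of the cytosol and the mitochondria, the proteins that help other proteins to fold, and their cofactors. They were chosen by their names, in a rule drawn up with earlier results of these data known. A probe set was taken where its only gene symbol on the platform began with HSPA, HSPB, HSPD, HSPE, HSPH, HSP90A, DNAJA, DNAJB, DNAJC, CCT or BAG followed by a digit, or was TCP1 or HSF1. The genes HSPA5, DNAJB9, DNAJB11 and DNAJC3 of the endoplasmic reticulum (ER) were left out. This gave 103 probe sets of 64 genes, of 11963 genes with a probe set of a single symbol. A gene was read by its probe set of highest mean signal, and 53 of the 64 passed a filter at a mean signal of 208 and were tested. The 11 genes below the filter were BAG4, CCT8L2, DNAJC17, DNAJC28, DNAJC6, HSPA1L, HSPA2, HSPB2, HSPB3, HSPB7 and HSPB8, with mean signals of 37.67 to 196.5. The name of the set does not hold for every member: HSPA13, DNAJC1, DNAJC10, DNAJB12 and DNAJB14 encode proteins of the ER or its membrane. The inducible HSP70 genes HSPA1A and HSPA1B, the constitutive HSP70 gene HSPA8 and the chaperonin gene TCP1 had only probe sets that carried several symbols, so they fell outside the rule.

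HepG2, a human hepatoma line, had been transduced with a recombinant adenovirus for LacZ, the control that makes beta-galactosidase, or for GPI-PLD, the phospholipase D that cuts glycosylphosphatidylinositol anchors of membrane proteins. Cells were cultured for 6 h or 12 h, and each of the 4 groups had 4 Affymetrix arrays, with targets produced from 10 microgram of total RNA. Every group carried an adenovirus, and no group of cells without virus was analysed here. Whether the 4 arrays of each group stand for separate cultures is not stated. The p-values therefore measure only the spread among these arrays, which may be technical.

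Array medians of the signal lay between 304.5 and 377.6. The mean correlation of an array with the others of its group was 0.941 to 0.944 in GPI-PLD cells at 12 h and 0.953 to 0.965 in the other groups. All 8 hepatocyte markers were above the filter, with summed signals of 321600 to 397000 over the 16 arrays. Markers of other cells were above it in 4 of 6 cases for fibroblasts, 3 of 5 for leukocytes, 1 of 5 for endothelium and 1 of 3 for neurons. No marker was at 0. GPLD1, the gene of the GPI-PLD enzyme, did not differ detectably between the labels. On its set of highest mean, the log2 difference of GPI-PLD from LacZ was 0.02 ± 0.32 (SE) after 6 h and 0.12 ± 0.32 after 12 h. The GPLD1 signal therefore gives no check of the labels, and groups are called by their labels throughout. The stretch of GPLD1 that the vector carried is not given.

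Chaperones of the HSP70 family bind unfolded stretches of protein and let go of them in a cycle driven by ATP. J-proteins of the DNAJ families bring them clients and start ATP hydrolysis, and the HSP110 and BAG proteins exchange the nucleotide and release the client. HSP90 takes over many signalling proteins at a late stage, the CCT ring folds actin and tubulin, and HSPD1 with its lid HSPE1 forms the chaperonin chamber of mitochondria. HSF1 is the transcription factor of the heat shock response. As a trimer it binds inverted repeats of GAA, called heat shock elements, near the start of many of these genes. Liver cells carry a heavy load of protein synthesis and secretion, and their chaperones are abundant.

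The start windows of the genes were searched for this element, since several members moved together with time. A window ran from 250 bases before to 50 bases after a RefSeq start (GRCh38.p14). The windows table held 75 windows of 56 of the 64 genes. The genes BAG4, CCT6A, DNAJC1, DNAJC22, DNAJC24, HSF1, HSPA14 and HSPB2 had none. The element was written with 3 units, as GAANNTTCNNGAA or as TTCNNGAANNTTC. These are reverse complements of each other, so both strands were covered. It occurred in 6 of the 56 genes (10.7%) and in 0.608% of the 27305 genes of the windows table. The 6 genes were DNAJA1, DNAJB6, HSP90AA1, HSP90AB1, HSPA6 and HSPD1. The shorter form with 2 units, GAANNTTC or TTCNNGAA, each of which is its own reverse complement, lies within every match of the longer form. It occurred in 22 of the 56 genes (39.3%) and in 16.2% of all genes. The stretches that follow show the 3-unit form in 5 genes, at 2 places in HSP90AB1 and as a pair of overlapping matches in HSPD1. They also show DNAJB1, which fell with time in cells of either virus, with the 2-unit form at both places in that window. Capitals mark these matches. The stretches lie at chr14:102087085-102087154 (minus strand, HSP90AA1), chr6:44247758-44247857 (plus strand, HSP90AB1), chr1:161524445-161524494 (plus strand, HSPA6), chr9:33025271-33025298 (plus strand, DNAJA1), chr2:197500063-197500090 (minus strand, HSPD1) and chr19:14518418-14518497 (minus strand, DNAJB1). All but the DNAJA1 stretch end before the annotated start they were read from. The DNAJA1 match begins at base 4 of the transcript, and the HSPD1 stretch lies downstream of another annotated HSPD1 start.
HSP90AA1: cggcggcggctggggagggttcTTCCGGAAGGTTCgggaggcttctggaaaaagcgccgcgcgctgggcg
HSP90AB1: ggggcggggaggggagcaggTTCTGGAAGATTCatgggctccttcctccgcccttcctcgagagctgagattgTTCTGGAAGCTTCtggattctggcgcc
HSPA6: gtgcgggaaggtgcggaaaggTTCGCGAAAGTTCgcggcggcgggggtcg
DNAJA1: gggcgGAACTTTCCAGAAcgctcggtga
HSPD1: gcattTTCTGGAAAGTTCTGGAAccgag
DNAJB1: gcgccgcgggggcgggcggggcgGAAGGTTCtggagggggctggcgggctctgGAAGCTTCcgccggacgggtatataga

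**Figure D1:**
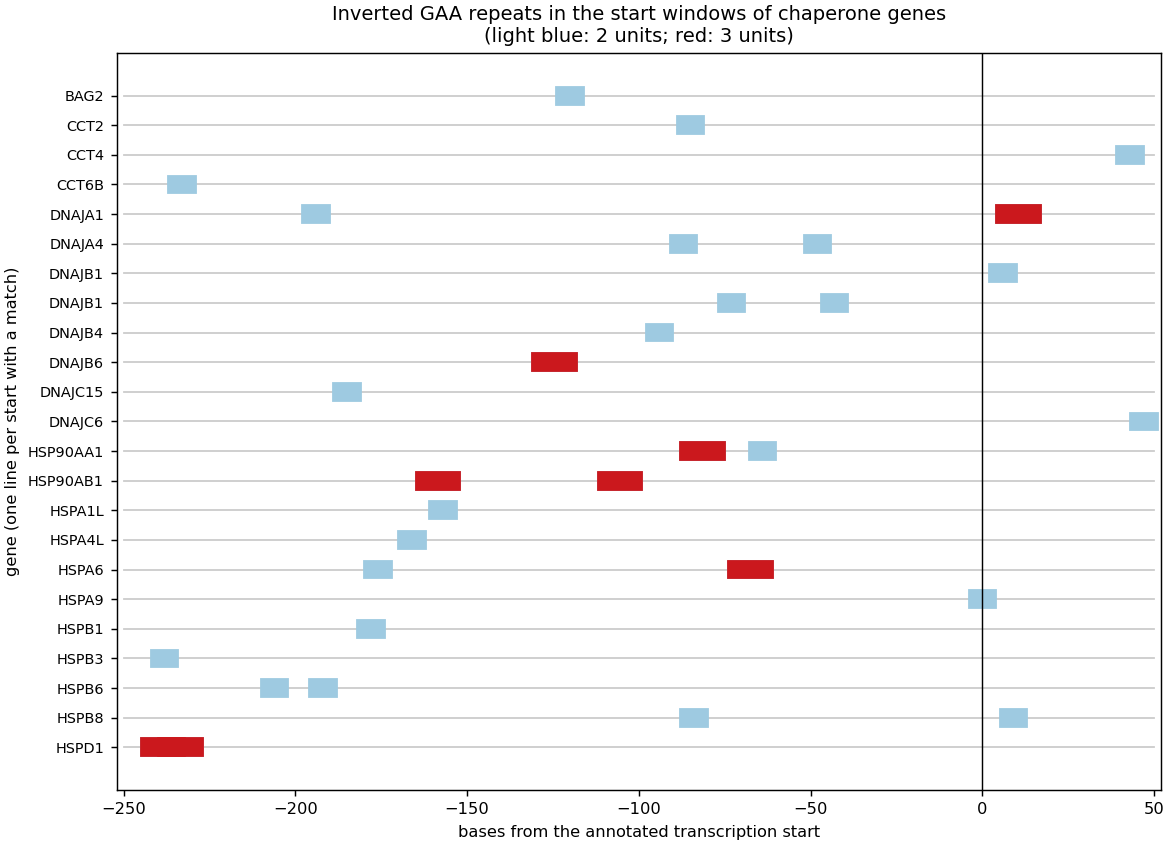
Positions of the inverted GAA repeats in the start windows of the chaperone genes that hold a match. The x axis is the distance in bases from the annotated start (vertical line), each row is a window, and boxes are matches of the 3-unit form (red) or of the 2-unit form alone (light blue). The 3-unit form lies within the window in 6 genes, and HSP90AB1 has 2 separate matches of it.

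The comparison of 12 h with 6 h asked which genes had changed between the times after transduction. Most of the chaperone genes were not called. A group that holds the mitochondrial lid HSPE1 and the heat-inducible DNAJB1, DNAJA1 and HSPH1 fell, and another group, mostly of J-proteins, rose. J-proteins are also numerous among the 53 tested members, with 4 DNAJA, 7 DNAJB and 14 DNAJC genes. DNAJB1, DNAJA1 and DNAJC9 were J-protein genes that fell, so the rise is no trait of J-proteins. In LacZ cells 9 of 53 tested members passed the test (limma, Benjamini-Hochberg adjusted p under 0.05 over all 8109 tested genes), against 6.89% of all tested genes. Of these, 5 rose, where 3.64% of all genes rose, and 4 fell, where 3.26% fell. In GPI-PLD cells 12 members passed, against 9.64% of all genes, with 5 that rose (4.59% of all genes) and 7 that fell (5.06%). The members called were 17% of those tested for LacZ and 22.6% for GPI-PLD. The tested members had a median signal of 2470 and a median SE of 0.13 on the log2 scale, against 929 and 0.17 for all tested genes, and the part of signal and precision in these shares was not tested. HepG2 is a single cell line, so the marker sums that follow are signals of those genes and no measure of other cells. Summed markers of leukocytes ran from 6430 to 12460 at 6 h and from 10320 to 14390 at 12 h in LacZ cells, and those of endothelium from 255.6 to 711.8 and from 705.5 to 881.4. In GPI-PLD cells the leukocyte sums were 8671 to 11370, then 8740 to 12800, and the endothelial sums 210.4 to 649.9, then 551.9 to 891.5. Of the tested markers, 3 for leukocytes and 1 for endothelium, 0 were called in either time comparison, beside 6.89% and 9.64% of all genes. What moved these sums was not tested. The median log2 difference of the members was -0.07 for LacZ and -0.01 for GPI-PLD.

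The time comparisons of the viruses share no arrays, and the members can be set side by side in them. HSPE1, DNAJB1, DNAJA1 and HSPH1 fell in cells of both viruses, and DNAJC12 and DNAJC2 rose in both. These 6 genes were 66.7% of the calls in LacZ cells and 50% of those in GPI-PLD cells. Each of the 15 genes called in at least 1 virus had the same sign in the other. The same shares over all called genes were not worked out, so these counts show no trait particular to the chaperone genes. Over all 53 members 41 had the same sign (77.4%, against 63.9% of all tested genes). Pearson's r across the 53 genes was 0.675 and Spearman's rho 0.735, with r = 0.411 across all tested genes. Genes are not independent replicates and share the arrays. The difference between the time courses of the viruses passed the test in 0 of 53 members (limma, smallest adjusted p = 0.463), so no gene called in a single virus is shown to differ between them. It passed in 0.0123% of all genes, which is 1 gene.

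**Figure D2:**
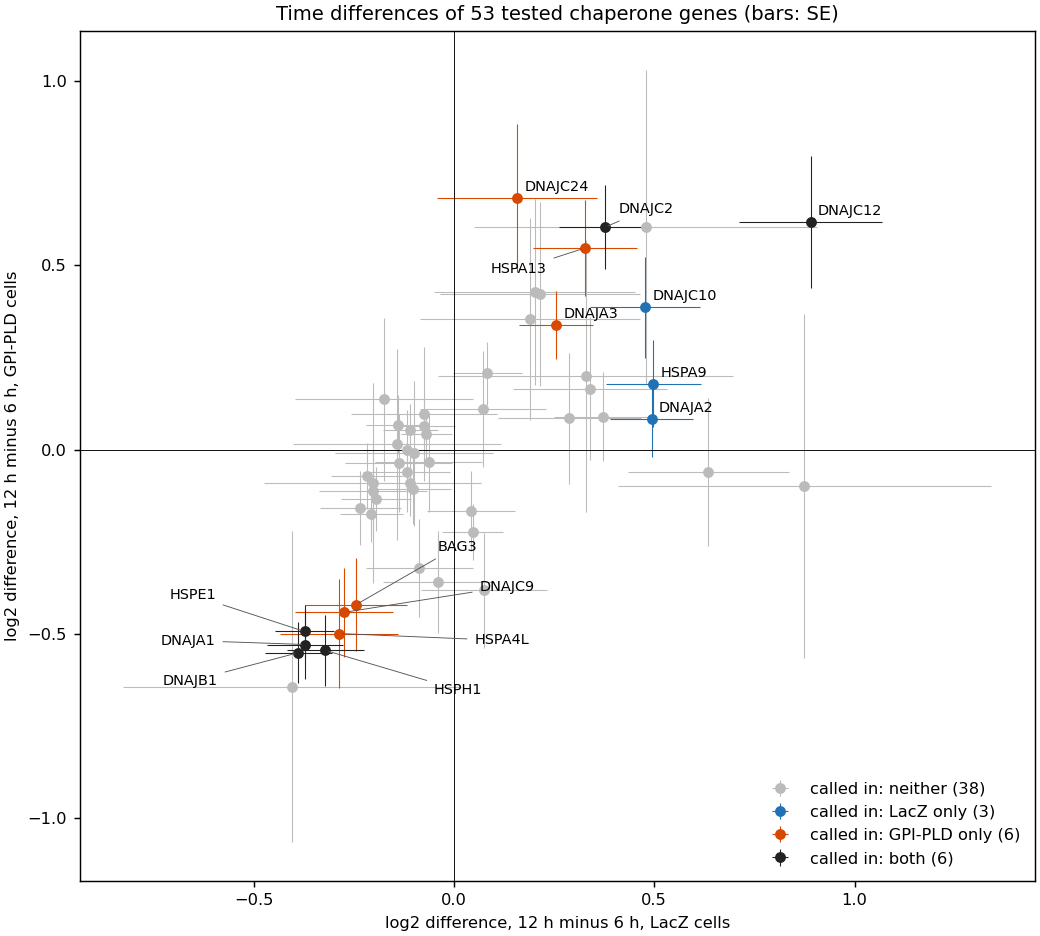
Log2 difference between 12 h and 6 h in LacZ cells (x axis) and in GPI-PLD cells (y axis) for the 53 tested chaperone genes, with bars of 1 SE and names for the genes called. The 7 genes called as lower lie together at the bottom left, and the 6 genes called in both viruses are drawn in black.

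HSPE1, the lid of the mitochondrial chaperonin, fell in both viruses. Its signals in LacZ cells were 29871, 30688, 31315 and 30217 at 6 h, then 24948, 21492, 24719 and 23238 at 12 h. In GPI-PLD cells they were 26741, 28311, 30848 and 33747 at 6 h, then 21456, 20268, 20774 and 22142 at 12 h. Every array at 12 h lay below every array at 6 h of the same virus. The log2 difference, taken on signal + 63 as throughout, was -0.37 ± 0.07 (SE) in LacZ (limma, adjusted p = 0.00205) and -0.49 ± 0.07 in GPI-PLD cells (adjusted p = 6.52e-05), the latter a 1.41-fold drop.

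HSPD1, which forms the chamber that HSPE1 closes, is its neighbour in the genome. An HSPD1 start lies 105 bases from the HSPE1 start on the opposite strand of chromosome 2, and another HSPD1 start, from which the stretch with the heat shock element was read, lies 539 bases away. HSPD1 signals did not follow those of HSPE1. They were 72170 ± 5360 (SD, n = 4) at 6 h and 68710 ± 2370 at 12 h in LacZ cells, and 70710 ± 3680 and 72780 ± 4050 in GPI-PLD cells. The groups overlapped in both viruses. This HSPD1 set had the highest mean signal of all tested members, 71090. Whether signals so high still follow the amount of RNA in proportion was not tested. The log2 difference of HSPD1 was -0.07 ± 0.06 in LacZ (95% interval -0.20 to 0.07) and 0.04 ± 0.06 in GPI-PLD cells (-0.09 to 0.17). The other HSPD1 probe set gave -0.06 ± 0.08 and 0.07 ± 0.08. Within arrays, the ratio of HSPE1 to HSPD1 changed by -0.31 (log2) in LacZ and -0.54 in GPI-PLD cells, or by -0.32 and -0.56 with the other HSPD1 set. This pair was singled out after its values were seen, so the ratio is given as a description.

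Of the cytosolic J-proteins, DNAJB1 and DNAJA1 fell in both viruses. DNAJB1, the main stress-inducible partner of HSP70, had signals of 6481, 6051, 7021 and 5660 at 6 h, then 4877, 4329, 4823 and 5147 at 12 h in LacZ cells. In GPI-PLD cells it had 6422, 5918, 6619 and 6490 at 6 h, then 4297, 4584, 4088 and 4323 at 12 h. The times did not overlap in either virus. DNAJB1 differed by -0.39 ± 0.08 in LacZ (limma, adjusted p = 0.00446) and by -0.55 ± 0.08 in GPI-PLD cells (adjusted p = 8.05e-05), and its other probe set gave -0.37 ± 0.13 and -0.57 ± 0.13.

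DNAJA1, a cytosolic J-protein with a lipid anchor, had signals of 13264, 14089, 14155 and 12556 at 6 h, then 10596, 9012, 9862 and 12543 at 12 h in LacZ cells. In GPI-PLD cells its signals were 12627, 14107, 14251 and 13215 at 6 h, then 8431, 11003, 9080 and 9120 at 12 h. LacZ 12 h replicate 4 lay just under the lowest array at 6 h, and the other 12 h arrays were well below. The DNAJA1 difference was -0.37 ± 0.09 in LacZ (limma, adjusted p = 0.0158) and -0.53 ± 0.09 in GPI-PLD cells (adjusted p = 0.000559). The call in LacZ cells was lost when LacZ 12 h replicate 2 or 3 was left out, with an adjusted p of up to 0.0815 over the alternatives. The other DNAJA1 probe set fell too, by -0.44 ± 0.12 and -0.56 ± 0.12.

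In the HSP110 family, whose members exchange the nucleotide of HSP70, HSPH1 fell in both viruses and HSPA4L fell in GPI-PLD cells. HSPH1 read 7027, 5509, 5606 and 6322 at 6 h, then 5341, 4552, 4602 and 4992 at 12 h in LacZ cells. In GPI-PLD cells it read 6443, 4855, 6048 and 6393 at 6 h, then 3953, 4038, 4068 and 4036 at 12 h. The latter 4 arrays lay close together, below all others. HSPH1 differed by -0.32 ± 0.10 in LacZ (limma, adjusted p = 0.0471) and by -0.54 ± 0.10 in GPI-PLD cells (adjusted p = 0.000559). The LacZ call stood near the threshold and was lost in 17 of 28 alternatives. Among them were the omission of replicate 1 or 4 of LacZ at 6 h, replicate 2, 3 or 4 of LacZ at 12 h, and replicate 1, 3 or 4 of GPI-PLD at either time. The other HSPH1 probe set was 4119 ± 581 (SD, n = 4) at 6 h and 3003 ± 458 at 12 h in LacZ cells. In GPI-PLD cells that set was 3905 ± 435 and 2809 ± 598, so its drop was of like size in both viruses. HSPA4L was 1186 ± 142 (SD, n = 4) at 6 h and 969.6 ± 194 at 12 h in LacZ cells, and 1256 ± 61.4 and 878.2 ± 151 in GPI-PLD cells. Its difference was -0.29 ± 0.15 in LacZ (adjusted p = 0.28) and -0.50 ± 0.15 in GPI-PLD cells (adjusted p = 0.0323). HSPA4, the remaining member of the family, differed by 0.04 ± 0.11 and -0.17 ± 0.11.

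BAG3, a nucleotide exchange factor that links HSP70 to the small heat shock proteins, and DNAJC9, a nuclear J-protein that handles histones, fell in GPI-PLD cells. BAG3 signals there were 1807, 1694, 1936 and 1891 at 6 h, then 1486, 1070, 1525 and 1373 at 12 h, without overlap. The BAG3 difference was -0.42 ± 0.13 in GPI-PLD (limma, adjusted p = 0.036) and -0.24 ± 0.13 in LacZ cells (adjusted p = 0.287). DNAJC9 was 3105 ± 236 (SD, n = 4) at 6 h and 2299 ± 466 at 12 h in GPI-PLD cells, a difference of -0.44 ± 0.12 (adjusted p = 0.0215), and differed by -0.27 ± 0.12 in LacZ cells (adjusted p = 0.202). The calls of BAG3, DNAJC9 and HSPA4L in GPI-PLD cells were lost in 9, 6 and 6 of 28 alternatives, and each was lost without GPI-PLD 6 h replicate 3 or 4. BAG3 was also lost without GPI-PLD 6 h replicate 1 or GPI-PLD 12 h replicate 2 or 4, DNAJC9 without GPI-PLD 12 h replicate 2 or 3, and HSPA4L without GPI-PLD 6 h replicate 1 or 2 or GPI-PLD 12 h replicate 1 or 3. The DNAJC9 call was lost with the mean of its probe sets too. Its other set was 746.2 ± 165 at 6 h and 622.6 ± 94.4 at 12 h in GPI-PLD cells, with overlap.

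Of the 7 genes that fell in either virus, DNAJA1 held the 3-unit element in its window, and DNAJA1, DNAJB1 and HSPA4L held the 2-unit form. Of the 7 genes with a window among the 8 that rose, 0 held the 3-unit form and 1, HSPA9, the 2-unit form. Over all 56 members with a window the shares were 10.7% for the 3-unit and 39.3% for the 2-unit form. Over all genes of the windows table they were 0.608% and 16.2%. With so few genes, the counts show no difference between those that fell and those that rose. The 3-unit genes HSP90AA1, HSP90AB1, HSPD1, HSPA6 and DNAJB6 were not called in either virus. A match is a description of letters in the window.

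**Figure D3:**
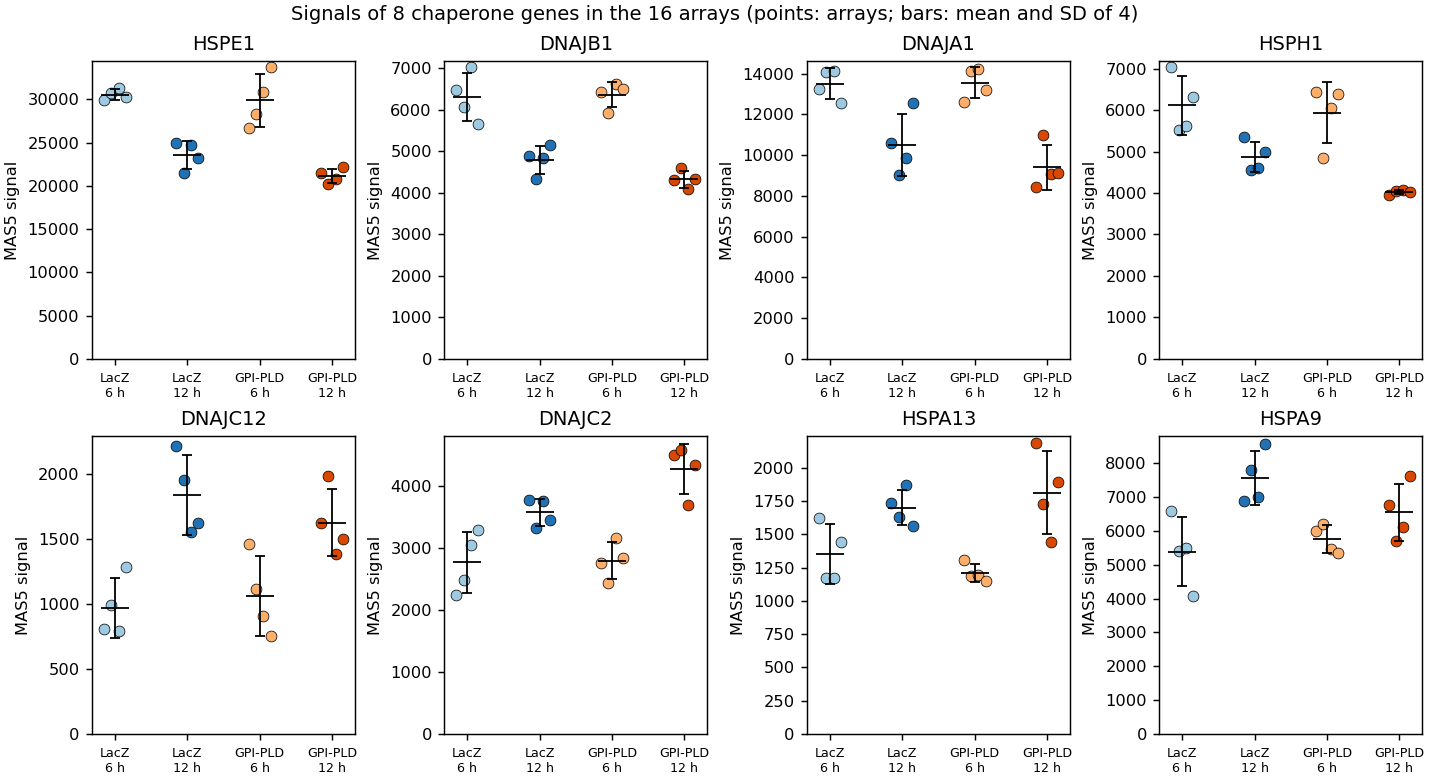
Signals (linear MAS5 scale, y axes from 0) of HSPE1, DNAJB1, DNAJA1, HSPH1, DNAJC12, DNAJC2, HSPA13 and HSPA9 in the 16 arrays, by group. Points are arrays and bars are the mean and SD of 4. The 12 h arrays of HSPE1, DNAJB1, DNAJA1 and HSPH1 lie below the 6 h arrays of the same virus.

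Of the 14 tested J-protein genes of the DNAJC family, 3 rose in cells of each virus, where 3.64% of all genes rose for LacZ and 4.59% for GPI-PLD. DNAJC was the family with the most genes tested. DNAJC12, a partner of the aromatic amino acid hydroxylases, had signals of 806.6, 994, 792 and 1285 at 6 h, then 2214, 1953, 1553 and 1622 at 12 h in LacZ cells. In GPI-PLD cells it had 1462, 1111, 902.4 and 753.1 at 6 h, then 1622, 1982, 1385 and 1501 at 12 h. The times were apart in LacZ cells and overlapped in GPI-PLD cells, where replicate 1 at 6 h lay above replicate 3 at 12 h. DNAJC12 rose by 0.89 ± 0.18 in LacZ (1.85-fold; limma, adjusted p = 0.00251) and by 0.62 ± 0.18 in GPI-PLD cells (1.53-fold; adjusted p = 0.0293). The second call was lost without GPI-PLD 6 h replicate 3 or 4 and without GPI-PLD 12 h replicate 1 or 2.

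DNAJC2, which sits on the ribosome and helps nascent chains to fold, read 2238, 2489, 3041 and 3296 at 6 h, then 3767, 3328, 3754 and 3445 at 12 h in LacZ cells. In GPI-PLD cells it read 2756, 2439, 3154 and 2839 at 6 h, then 4504, 4581, 3695 and 4333 at 12 h. All 12 h arrays were above the 6 h arrays of the same virus, by a narrow margin in LacZ cells. DNAJC2 rose by 0.38 ± 0.11 in LacZ (limma, adjusted p = 0.0466) and by 0.60 ± 0.11 in GPI-PLD cells (adjusted p = 0.000994). The call in LacZ cells was lost in 16 of 28 alternatives. Among them were the omission of any LacZ 12 h array, of LacZ 6 h replicate 1 or 2, and of replicate 1 or 4 of GPI-PLD 6 h or GPI-PLD 12 h.

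DNAJC10, an ER J-protein that reduces disulfides, and DNAJC24, a factor of diphthamide synthesis, were each called in a single virus. DNAJC10 was 2793 ± 788 (SD, n = 4) at 6 h and 3795 ± 97.9 at 12 h in LacZ cells, and 2757 ± 298 and 3607 ± 145 in GPI-PLD cells. LacZ 6 h replicate 3, at 3764, lay within the range of the 12 h arrays. In GPI-PLD cells the times did not overlap, with 2327 to 2996 at 6 h and 3446 to 3761 at 12 h. DNAJC10 differed by 0.48 ± 0.14 in LacZ (limma, adjusted p = 0.0357) and 0.39 ± 0.14 in GPI-PLD cells (adjusted p = 0.0804). The LacZ call was lost without LacZ 6 h replicate 1 or 2 or any single array of LacZ 12 h. The other DNAJC10 probe set had higher means at 12 h in both viruses. It went from 1265 ± 216 to 1872 ± 420 in LacZ and from 1441 ± 107 to 1956 ± 122 in GPI-PLD cells. DNAJC24 had signals of 549.7, 434.7, 492.8 and 572.6 at 6 h, then 1050, 1229, 561 and 733.4 at 12 h in GPI-PLD cells. Replicates 1 and 2 at 12 h were the highest, and replicate 3 lay within the 6 h range. DNAJC24 differed by 0.68 ± 0.20 in GPI-PLD (adjusted p = 0.032) and 0.16 ± 0.20 in LacZ cells (adjusted p = 0.739), and its call was lost without GPI-PLD 12 h replicate 1 or 2 or GPI-PLD 6 h replicate 2 or 3.

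Of the other DNAJA genes, DNAJA2 rose in LacZ cells and DNAJA3 in GPI-PLD cells. DNAJA2, a cytosolic J-protein, had 2779, 2107, 1956 and 2469 at 6 h, then 3173, 3274, 3499 and 3154 at 12 h in LacZ cells, with no overlap. In GPI-PLD cells it was 2416 ± 40.9 (SD, n = 4) at 6 h and 2568 ± 213 at 12 h. The DNAJA2 difference was 0.49 ± 0.10 in LacZ (limma, adjusted p = 0.00354) and 0.08 ± 0.10 in GPI-PLD cells (adjusted p = 0.693). DNAJA3, the mitochondrial J-protein that serves HSPA9, was 3004 ± 358 at 6 h and 3797 ± 176 at 12 h in GPI-PLD cells, where it differed by 0.34 ± 0.09 (adjusted p = 0.0214, lost without GPI-PLD 6 h replicate 1 or 4 or GPI-PLD 12 h replicate 3). In LacZ cells DNAJA3 differed by 0.26 ± 0.09 (adjusted p = 0.107), also with no overlap of the times. DNAJA4 differed by 0.20 ± 0.25 and 0.43 ± 0.25.

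In the HSP70 family 5 of 7 genes were tested. HSPA9, the HSP70 of the mitochondrial matrix, read 6594, 5404, 5495 and 4076 at 6 h, then 6887, 7789, 6999 and 8577 at 12 h in LacZ cells, and its times did not overlap there. It rose by 0.50 ± 0.12 (1.41-fold; limma, adjusted p = 0.00925). In GPI-PLD cells HSPA9 was 5756 ± 407 (SD, n = 4) at 6 h and 6551 ± 840 at 12 h, a difference of 0.18 ± 0.12 (adjusted p = 0.386). Its probe sets disagreed in LacZ cells, where the others gave -0.21 ± 0.20 and 0.34 ± 0.10, and with the mean of the 3 sets the adjusted p was 0.224. HSPA13, an HSP70 of microsomes, read 1307, 1185, 1192 and 1153 at 6 h, then 2186, 1728, 1444 and 1895 at 12 h in GPI-PLD cells. It rose there by 0.55 ± 0.13 (adjusted p = 0.00758), and differed by 0.33 ± 0.13 in LacZ cells (adjusted p = 0.148). The other HSPA13 probe set rose in both viruses, by 0.95 ± 0.17 in LacZ and 1.05 ± 0.17 in GPI-PLD cells. HSPA14, a ribosome-associated HSP70, differed by -0.20 ± 0.13 and -0.11 ± 0.13. HSPA6, a strictly inducible gene, and HSPA12A, a distant relative, had wide errors (SE 0.43 and 0.42) and were not called.

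The cytosolic HSP90 genes were not called. HSP90AA1, the inducible form, was 43690 ± 3050 (SD, n = 4) at 6 h and 37580 ± 2430 at 12 h in LacZ cells, and 42050 ± 4910 and 40010 ± 4760 in GPI-PLD cells, a difference of -0.22 ± 0.09 (limma, adjusted p = 0.166) and -0.07 ± 0.09 (adjusted p = 0.691). The other HSP90AA1 probe sets also had lower means at 12 h. They went from 42230 to 33670, 32520 to 29050 and 22890 to 21290 in LacZ cells. In GPI-PLD cells they went from 37990 to 32160, 32310 to 28530 and 24380 to 21190. Only the first of these sets, and only in LacZ cells, did not overlap between the times. HSP90AB1, the constitutive form, differed by -0.11 ± 0.07 and 0.05 ± 0.07, with 95% intervals of -0.25 to 0.03 and -0.09 to 0.20. HSPB1, the small heat shock protein HSP27, differed by -0.04 ± 0.14 in LacZ and -0.36 ± 0.14 in GPI-PLD cells (adjusted p = 0.111). HSPB6 differed by 0.88 ± 0.47 and -0.10 ± 0.47. HSF1 itself had low and scattered signals, 442.3 ± 94.6 and 529.2 ± 210 in LacZ and 424.6 ± 169 and 548.6 ± 160 in GPI-PLD cells at 6 h and 12 h. Its difference was 0.19 ± 0.27 in LacZ (adjusted p = 0.777) and 0.35 ± 0.27 in GPI-PLD cells (adjusted p = 0.476).

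The CCT genes encode the subunits of the cytosolic chaperonin ring. Of 9 genes 8 were tested, and 0 were called in either virus. Over all tested genes 6.89% were called for LacZ and 9.64% for GPI-PLD, so 0 of 8 shows no trait of the ring. Their log2 differences ran from -0.21 to 0.05 in LacZ and from -0.22 to 0.07 in GPI-PLD cells, with medians of -0.12 and -0.10, beside medians of -0.07 and -0.01 over all 53 members. The lowest in GPI-PLD cells was CCT4, at 23910 ± 1890 (SD, n = 4) at 6 h and 20440 ± 562 at 12 h, with a difference of -0.22 ± 0.08 (limma, adjusted p = 0.0675). A second CCT6A probe set differed by -0.01 ± 0.12 in LacZ cells and fell by 0.57 ± 0.12 on the log2 scale in GPI-PLD cells (adjusted p = 0.00755 over all probe sets), beside -0.19 ± 0.09 and -0.13 ± 0.09 for the set that was used.

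Most J-proteins and BAG genes were not called. Of 7 DNAJB genes DNAJB1 alone was called, in both viruses, where 6.89% of all tested genes were called for LacZ and 9.64% for GPI-PLD. DNAJB12, which is anchored in the ER membrane, had the largest difference of the others, 0.64 ± 0.20 in LacZ cells (limma, adjusted p = 0.0581) against -0.06 ± 0.20 in GPI-PLD cells. Another DNAJB12 probe set of like signal did not share this pattern. Its signals went from 754.6 ± 111 (SD, n = 4) to 808.2 ± 110 in LacZ and from 825.3 ± 170 to 925.4 ± 382 in GPI-PLD cells. DNAJC15, a mitochondrial J-protein, was 5600 ± 688 and 4731 ± 223 in LacZ and 5147 ± 526 and 4611 ± 513 in GPI-PLD cells (SD, n = 4) at 6 h and 12 h, a difference of -0.23 ± 0.10 and -0.16 ± 0.10. BAG6, which guards membrane proteins in the cytosol, differed by 0.37 ± 0.12 in LacZ (adjusted p = 0.0685) and 0.09 ± 0.12 in GPI-PLD cells, and another BAG6 probe set by 0.61 ± 0.14 in LacZ (adjusted p = 0.0188 over all probe sets) and 0.02 ± 0.14 in GPI-PLD cells. Of the 24 genes with several probe sets above the filter, all sets had the same sign in 14 genes for LacZ and 16 for GPI-PLD. The times did not overlap in 11 of 53 members in LacZ cells, where 12.9% of all genes did not overlap, and in 14 in GPI-PLD cells, where the share was 15.9%.

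Averaged over the viruses, a comparison added after the data were seen, 16 of the 53 members (30.2%) passed, with 8 higher and 8 lower at 12 h. Over all genes 16.2% passed, 7.78% as higher and 8.4% as lower. The 16 were the 15 genes called in either virus and CCT7, a subunit of the chaperonin ring. CCT7 was 10870 ± 682 (SD, n = 4) at 6 h and 9405 ± 448 at 12 h in LacZ cells, and 11180 ± 786 and 9917 ± 810 in GPI-PLD cells, and fell by 0.19 ± 0.06 on the log2 scale (limma, adjusted p = 0.0194). All 8 tested CCT genes had values below 0 in this comparison, from -0.19 to -0.01, and the other 7 were not called. Of all 8109 tested genes 3824 lay below 0, as did 32 of the 53 members. The CCT genes share the arrays and are not separate observations.

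**Figure D4:**
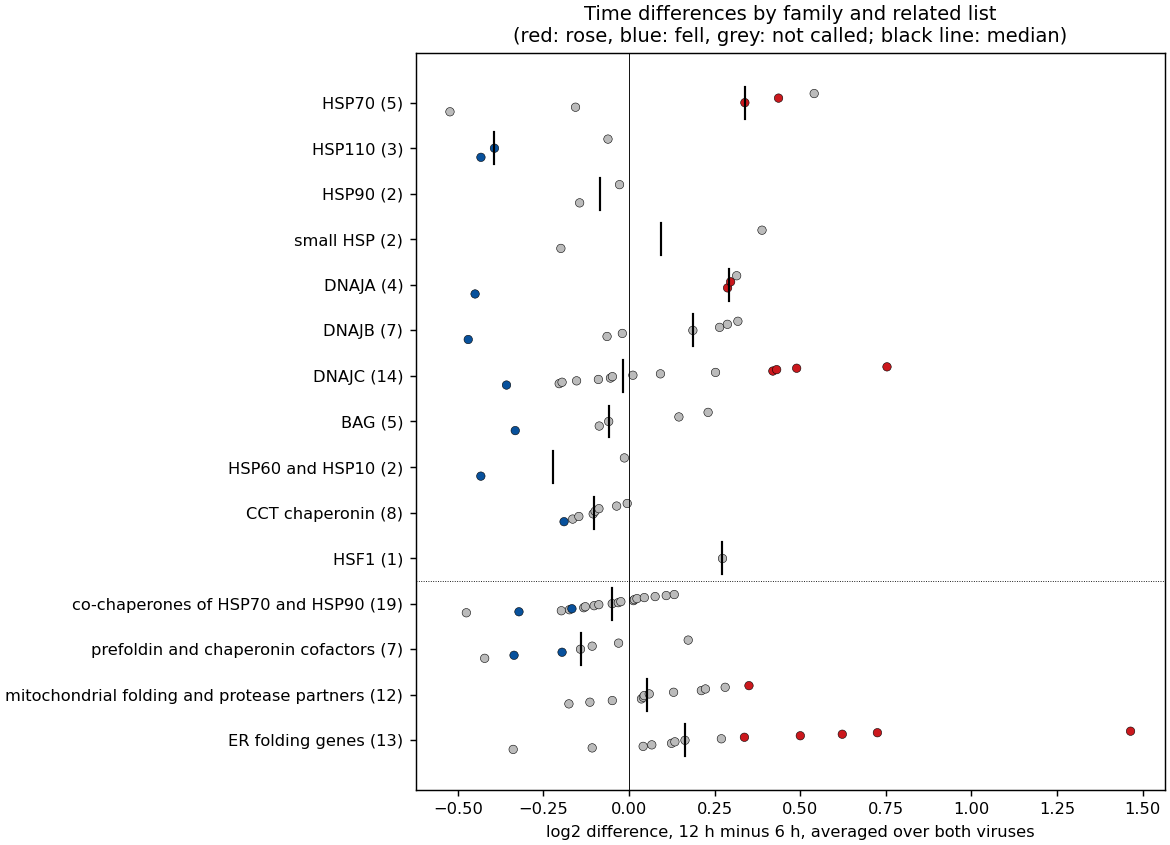
Log2 difference between 12 h and 6 h averaged over the viruses (x axis), by chaperone family and, below the dotted line, by list of related genes, with the number tested in brackets. Points are genes, red for those that rose, blue for those that fell and grey for those not called, and black lines are medians. The HSP110 family and HSPE1 lie on the lower side, the DNAJA and DNAJC families have genes on both sides, and the ER folding genes reach the highest values.

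The related genes gave few calls, and their lists were drawn up with earlier results of these data known. Of 19 tested co-chaperones of HSP70 and HSP90, 0 were called in either virus alone and 2 fell in the average, where 8.4% of all genes fell: STIP1, which joins HSP70 to HSP90, by 0.32 ± 0.10 and PTGES3, the HSP90 cofactor p23, by 0.17 ± 0.05 on the log2 scale. Of 7 tested genes of prefoldin, which hands clients to the CCT ring, and of its cofactors, 2 fell in the average: PFDN1 by 0.34 ± 0.10 and VBP1 by 0.20 ± 0.06. Of 12 mitochondrial folding partners 1 rose in the average, where 7.78% of all genes rose: the protease gene HTRA2 (0.35 ± 0.11). HSBP1, which binds heat shock factors, fell by 0.41 ± 0.13 on the log2 scale in GPI-PLD cells (limma, adjusted p = 0.0445) and differed by -0.36 ± 0.13 in LacZ cells (adjusted p = 0.104). Of 13 ER folding genes 4 rose in each virus and 0 fell. Of all genes, 3.64% rose and 3.26% fell for LacZ, and 4.59% rose and 5.06% fell for GPI-PLD. The ER folding genes that rose were DNAJB9 (1.37 ± 0.09 in LacZ and 1.56 ± 0.09 in GPI-PLD cells), HYOU1, SDF2L1 and HSPA5. The medians of the averaged difference were -0.05 for the co-chaperones, -0.14 for prefoldin, 0.05 for the mitochondrial partners and 0.16 for the ER genes, beside -0.05 for the members and 0.02 over all tested genes.

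The probe sets of the inducible HSP70 genes, which carry several symbols and are no members, fell by more than any member that was called. A set for HSPA1A and HSPA1B read 21368, 16225, 17632 and 18443 at 6 h, then 10767, 10903, 9100 and 8704 at 12 h in LacZ cells. In GPI-PLD cells it read 20029, 13927, 16817 and 20777 at 6 h, then 8964, 8847, 8529 and 8189 at 12 h. The times were far apart in both viruses. In a fit of all probe sets it differed by -0.90 ± 0.11 in LacZ (limma, adjusted p = 2.93e-05) and -1.03 ± 0.11 in GPI-PLD cells (adjusted p = 4.03e-06). The other sets gave -0.79 ± 0.19 and -1.07 ± 0.19, and, for the set that also names HSPA1L, -0.95 ± 0.13 and -1.46 ± 0.13. These sets cannot tell the near-identical HSPA1A and HSPA1B apart. For HSPA8, the constitutive HSP70, 3 sets shared with small nucleolar RNA genes gave differences of -0.21 to -0.38 in LacZ and -0.29 to -0.34 in GPI-PLD cells. Of these, 2 passed in LacZ and 1 in GPI-PLD cells. The 3 sets shared by TCP1 and SNORA29 were not called in either virus alone, with differences from -0.27 to 0.03 in LacZ and from -0.14 to 0.14 in GPI-PLD cells. In the average over the viruses 1 of them fell, by 0.21 ± 0.06 on the log2 scale (limma, adjusted p = 0.0274).

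The comparison of GPI-PLD with LacZ, which is the question of the study, gave no call among the chaperone genes. At 6 h 0 of 53 members passed, as did 0 of all 8109 genes (0%). At an unadjusted p under 0.05 there were 0 members, against 4.62% of all genes. At 12 h 0 members passed, again against 0% of all genes, and 7 had an unadjusted p under 0.05, where 7.2% of all genes did. Averaged over the times 0 passed (0% of all genes), with 1 member at an unadjusted p under 0.05 (4.18% of all genes). For the difference of the virus effect between the times 0 passed, with 3 members at an unadjusted p under 0.05 (7.58% of all genes). The labelled groups did not overlap in 1 member at 6 h, BAG1, and in 5 at 12 h, where 3.07% and 3.96% of all genes did not overlap. The median of the log2 differences was -0.01 at both times, and the median 95% interval reached 0.27 to either side of its estimate. Over the 53 genes the interval bounds of the fold difference ran from 0.41 to 3.33 at 6 h and from 0.444 to 1.88 at 12 h.

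At 12 h the smallest p belonged to DNAJA2, with 3173, 3274, 3499 and 3154 in arrays labelled LacZ and 2659, 2372, 2416 and 2824 in those labelled GPI-PLD. The groups were apart, and the log2 difference was -0.35 ± 0.10 (limma, adjusted p = 0.482). HSPH1 came next, at 4872 ± 369 (SD, n = 4) in LacZ and 4024 ± 49.3 in GPI-PLD cells, a difference of -0.27 ± 0.10 (adjusted p = 0.59), again without overlap. DNAJC2 differed by 0.25 ± 0.11, CCT4 by -0.17 ± 0.08 and HSP90AB1 by 0.15 ± 0.07. At 6 h the 5 members of smallest p were BAG6 (0.21 ± 0.12), DNAJB12 (0.34 ± 0.20), the small heat shock gene HSPB6 (0.77 ± 0.47), the cytosolic J-protein gene DNAJB4 (-0.32 ± 0.22) and CCT4 (0.10 ± 0.08), each with an adjusted p of 0.998. HSPB6 signals there were spread from 80.5 to 291.6 in LacZ and from 181.5 to 769.1 in GPI-PLD cells.

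Averaged over the times, HSPH1 (-0.16 ± 0.07), DNAJA2 (-0.14 ± 0.07), HSPE1 (-0.09 ± 0.05), the HSP90 co-chaperone gene DNAJC7 (-0.17 ± 0.09) and DNAJC2 (0.14 ± 0.08) had the smallest p, each with an adjusted p of 0.998 (limma). The virus effect differed most between the times, by p, for DNAJA2 (-0.41 ± 0.15, adjusted p = 0.463), CCT4 (-0.27 ± 0.11), DNAJB12 (-0.70 ± 0.28), the endosomal J-protein gene DNAJC13 (-0.46 ± 0.22) and HSPA9 (-0.32 ± 0.17). In the other DNAJB12 set of like signal, the GPI-PLD mean lay above the LacZ mean at both times. The means were 825.3 against 754.6 at 6 h and 925.4 against 808.2 at 12 h. HSF1 differed by -0.10 ± 0.27 at 6 h and 0.06 ± 0.27 at 12 h. A p that misses the threshold does not show that the viruses act alike on these genes.

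**Figure D5:**
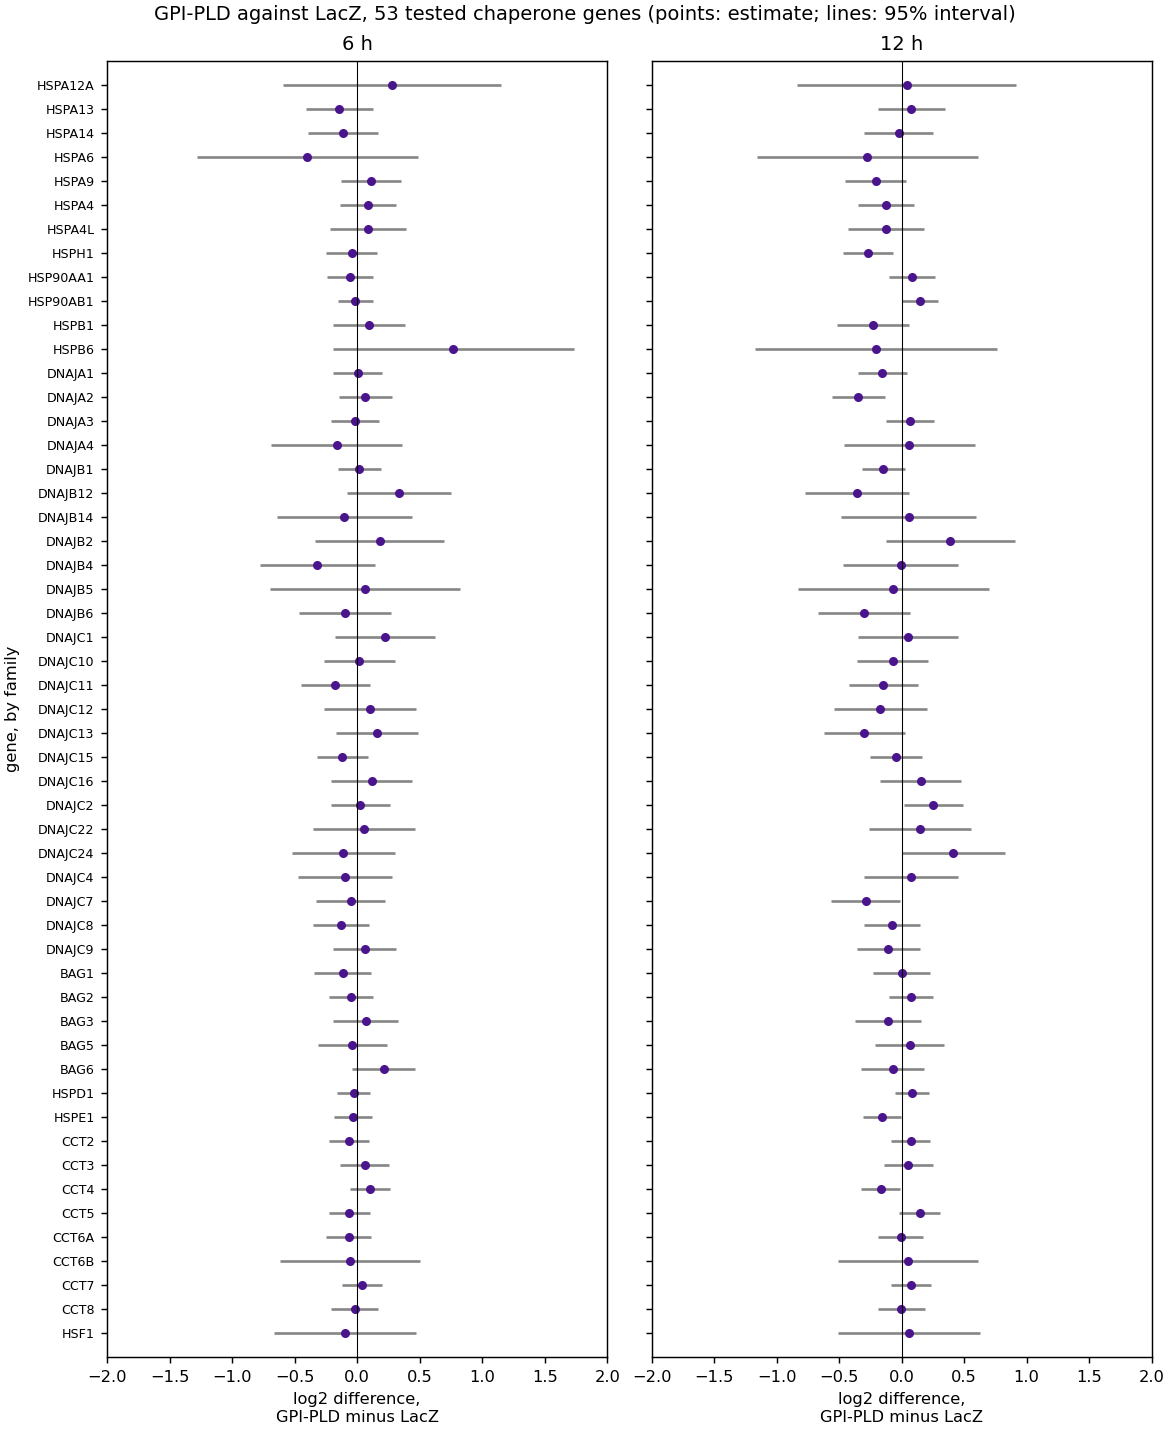
Log2 difference between GPI-PLD and LacZ cells for the 53 tested chaperone genes at 6 h (left) and 12 h (right), by family. Points are estimates and lines are 95% intervals, and no gene was called at either time. The intervals are narrow for genes such as HSPD1 and wide for HSPA6, HSPA12A and HSPB6.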

How the data were processed

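The authors deposited MAS5 signals, a linear intensity per probe set, per the submitters' processing notes. The scanner and its settings are not given in the sources used here. Per the labels, the targets for the arrays were produced from 10 microgram of total RNA. There were 16 arrays, 4 in each of 4 groups. Replicates were numbered in deposited order. No batch was named, and 0 pairs of arrays held identical values. Of 22283 probe sets, 68 controls were left out, and genes were named through the 19065 sets with 1 symbol in the platform annotation, whose gene IDs carried the current symbol for all 64 members.

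Signals were taken as log2(signal + 63), with the pseudocount at the 20th percentile and the filter at the 40th percentile of mean signal. Limma 3.58.1 (statmod 1.5.0, R 4.3.3) was used with a mean for each of the 4 groups and eBayes (trend, robust; 12 residual degrees of freedom), with Benjamini-Hochberg adjustment over 8109 genes. Errors are SE for differences and SD for signals. The steps were tested on simulated data. Named genes were HSF1, the members called with time, the 5 of smallest p in each virus comparison and the member of highest signal in each family. HSPD1, HSPE1 and the sets outside the rule were also described. The members and lists were chosen with earlier results of these data known. Promoter windows were read with Python 3.11.15 and pandas 2.3.3.

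Alternative settings were quantile normalization, a common 75th percentile, log2 without pseudocount or with 4 times as much, a filter at the 60th percentile or none, all probe sets of a gene averaged or each tested alone, eBayes with trend and robust both dropped, array weights, a fit of the compared groups alone, and the omission of each array. The average over viruses and the joint omission of GPI-PLD 12 h replicates 2 and 4 were added after seeing the data.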

Additional observations from a re-analysis of the deposited data

Results flagged for a closer look

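In 28 named genes, 112 groups of 4 arrays were searched for an array far from the others of its group, and 2 (1.79%) had one. The criterion is Dixon's gap to the nearest array over the group's range, which chance alone passes in about 1 of 20 groups. DNAJC13 read 549.6 in LacZ 6 h replicate 3, against 795.7 to 806.6 in the other arrays of that group. HSPA4 read 6999.3 in GPI-PLD 6 h replicate 4, against 5078.5 to 5357.2.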

How the results depend on the processing

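The count of chaperone genes called between the viruses was 0 in all alternatives, at 6 h, at 12 h and averaged, and 0 for the difference between the times. Between the times, LacZ cells gave 9 calls, and 5 to 10 over the alternatives: 5 with eBayes without trend and robust, and 5 to 9 with single arrays omitted, the lowest without LacZ 12 h replicate 2 or 3. GPI-PLD cells gave 12 calls, and 7 to 14 over the alternatives, with 7 to 13 when single arrays were omitted, the lowest without GPI-PLD 6 h replicate 3 or 4. An omission leaves fewer arrays, and beyond that the cause was not tested. The average over viruses gave 14 to 18 calls. DNAJC12, DNAJA2, DNAJB1 and HSPE1 in LacZ cells and DNAJC2, HSPA13, DNAJB1, HSPH1, DNAJA1 and HSPE1 in GPI-PLD cells were called in all 28 alternatives. The difference of the virus effect between the times for HSPA9 turned sign with the mean of its probe sets (log2 0.01, adjusted p = 0.991). No scaling moved the median of all genes by over 0.1 on the log2 scale. No paired analysis was possible because the labels give no replicate numbers. The number of arrays limits the precision, and dim genes such as HSF1, HSPA6 and HSPB6 have wide errors.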
